A study of Mus musculus with 4 samples.

Results

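Glial cells ensheathe and support neurons, and Schwann cells are the glia of peripheral nerves. A set of 8 genes grouped as glia-type, namely Cmtm5, Ninj2, Fabp7, Scrg1, Trabd2b, S100b, S100a1 and Erbb3, was followed in cartilage of mouse forelimbs. They were listed by name with their difference between 2 groups of chondrocytes already known, so that this difference is given for them as a description, and nothing is read from the count of members called. They are 8 of the 34547 genes in the deposited tables, and all 8 were among the 16607 genes with enough counts to be tested. The groups were proliferating chondrocytes (PC) at embryonic stage E14.5 and hypertrophic chondrocytes (HC) at stage E15.5, each with 2 libraries (PC replicates 1 and 2, HC replicates 3 and 4). All libraries were from the C57BL/6 strain with no allele or agent named, and RNA came from cells cut out of frozen sections with a laser. Zone and day changed together, so they cannot be told apart. Nothing in the sources used here says whether replicates came from separate animals or from pools, and p-values therefore measure only the spread between these libraries, which may be technical.

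In the growth plate, round and column-forming chondrocytes divide, then leave the cell cycle, enlarge and become hypertrophic. The step depends on transcription factors of the SOX family. SOX9 with its partners SOX5 and SOX6 keeps chondrocytes in the cartilage state, and its close relatives SOX8 and SOX10 also act in glia, where SOX10 drives Schwann cell genes. S100A1 and S100B are known targets of the SOX trio in cartilage, and several proteins first described in nerve are also made by chondrocytes.

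Depth ran from 15246529 to 36644496 estimated counts, and the HC pair was sequenced less deeply than the PC pair. Genes with counts numbered 21352 and 21154 in PC against 17012 and 17945 in HC. Mitochondrial genes took 8.81% and 13.15% of counts in PC against 20.16% and 14.11% in HC, where replicate 3 was the highest, and the part of these differences in the values below was not tested. Col2a1, the main collagen of cartilage, stood at 2200 to 7680 TPM (a level per transcript length, scaled to the same total in every library) in all 4 libraries. Genes of hypertrophy, 15 in all, summed to 683 and 1540 TPM in PC and to 14500 and 25100 in HC. The labelled cell types were thus matched by their markers, although PC replicate 2 held more hypertrophic RNA than PC replicate 1. Markers of other tissues differed as well. A list of 16 endothelial and blood genes summed to 93.3 and 126 TPM in PC and to 612 and 797 in HC, 13 muscle genes to 47.7 and 72.1 against 207 and 96, and 12 perichondrial and osteoblast genes to 496 and 528 against 2210 and 1260. In such bulk RNA, fewer cells of a type and less RNA per cell cannot be told apart.

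Promoter sequences were read for the members at their starts. RefSeq (GRCm38.p6) matched 5 of the 8 by symbol, not Scrg1, Erbb3 or Trabd2b, and the 250 bases before the RefSeq start were searched. That start lies 209, 30, 42 and 62 bases inside the GENCODE gene span given below for Cmtm5, Ninj2, Fabp7 and S100a1, so only the bases before both starts are printed, for 2 sets. Cmtm5, Ninj2 and Fabp7 are shown because they were at or next to 0 in HC, and S100b and S100a1 because they are relatives that differed in opposite directions. Capitals mark a match to ACAAAG or ACAAT, letters that SOX proteins bind, searched on both strands, and the first base lies farthest from the start.
Cmtm5 (chr14:54936220-54936260, plus strand): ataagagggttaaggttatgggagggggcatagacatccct
Ninj2 (chr6:120093130-120093349, plus strand): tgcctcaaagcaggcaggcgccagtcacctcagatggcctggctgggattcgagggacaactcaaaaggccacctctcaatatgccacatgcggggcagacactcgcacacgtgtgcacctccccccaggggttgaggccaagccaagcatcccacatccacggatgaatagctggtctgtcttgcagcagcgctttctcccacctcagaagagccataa
Fabp7 (chr10:57784673-57784880, plus strand): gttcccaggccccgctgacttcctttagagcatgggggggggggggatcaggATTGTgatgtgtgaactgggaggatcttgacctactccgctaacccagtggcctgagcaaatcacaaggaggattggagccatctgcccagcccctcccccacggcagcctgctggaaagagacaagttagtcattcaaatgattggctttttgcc
S100b (chr10:76253586-76253835, plus strand): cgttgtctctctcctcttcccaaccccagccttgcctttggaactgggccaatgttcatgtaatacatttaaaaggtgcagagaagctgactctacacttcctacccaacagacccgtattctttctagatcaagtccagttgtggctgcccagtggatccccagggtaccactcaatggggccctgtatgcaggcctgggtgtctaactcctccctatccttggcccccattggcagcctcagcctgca
S100a1 (chr3:90514393-90514580, minus strand): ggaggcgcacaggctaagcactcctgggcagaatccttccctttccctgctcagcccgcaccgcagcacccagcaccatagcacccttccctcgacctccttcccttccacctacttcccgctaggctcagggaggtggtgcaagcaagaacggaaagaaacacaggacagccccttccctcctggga
Of the 5 windows searched, only that of Fabp7 held a match, ATTGT, which is ACAAT on the other strand, beginning 198 bases before the RefSeq start. Of 27025 RefSeq promoter windows of the same length, 39.4% held ACAAAG or ACAAT on either strand (16.5% ACAAAG and 28.3% ACAAT). A match is a description of letters, and the absence of one says only that these letters were not in the window.

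The 8 genes did not share 1 pattern: 5 were at least 31.5-fold lower in HC, and S100b was lower by 1.9-fold. S100a1 was 1.96-fold higher in HC, and Erbb3 did not separate the groups in CPM. The 5 genes Cmtm5, Ninj2, Fabp7, Scrg1 and Trabd2b, were lower in HC at an edgeR adjusted p under 0.05, beside a background of 1.96% of all genes tested. Since the members were chosen on this contrast, that count is no test of them. When only library size was used for scaling, a choice that shifted the median log2 fold change of all genes from -0.04 to -0.29, and with limma on log2(TPM + 1) or log2(TPM + 0.1), no gene of the whole table passed (unadjusted p under 0.05 for 4394, 4260 and 3993 genes), so every call given here ends in those settings. In CPM (counts relative to library size after TMM, the trimmed mean of M values), both PC libraries stood above both HC libraries for 6 of the 8, beside 33.3% of all genes tested. The reverse order held for S100a1, beside 27.7% of all genes, and Erbb3 overlapped between the groups.

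**Figure D1:**
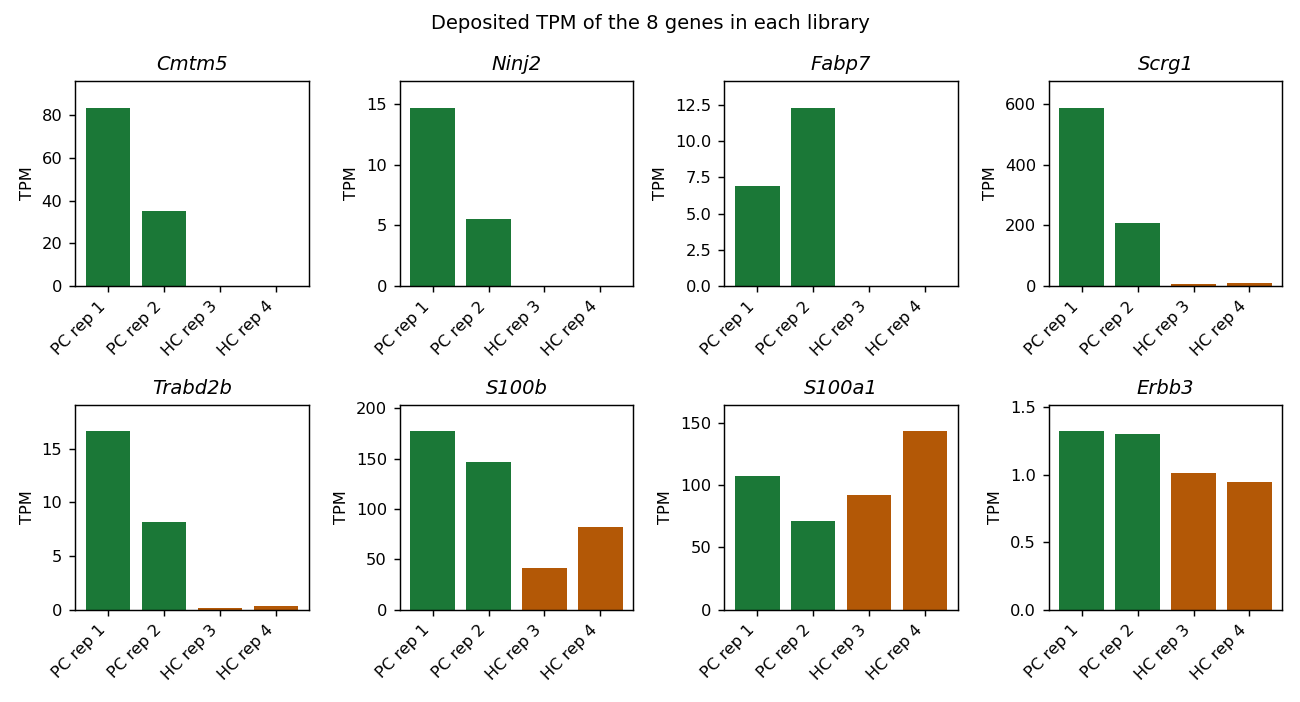
Bars give the deposited TPM, summed over the transcripts of each gene, in the 4 libraries (green, PC; brown, HC), with an axis from 0 for each gene. Cmtm5, Ninj2 and Fabp7 are at or near 0 in HC, Scrg1 and Trabd2b are far lower there than in PC (Scrg1 at 7.86 and 8.32 TPM), S100b is lower in HC, S100a1 overlaps between the groups, and Erbb3 is between 0.947 and 1.32 TPM throughout.

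Cmtm5 (chromosome 14, 54936261 to 54939274, plus strand, GRCm38) encodes a membrane protein of the chemokine-like factor and MARVEL domain family that is abundant in oligodendrocytes. It had 1340 and 734 counts in PC and 0 and 2 in HC. At the mean CPM of PC, the 2 HC libraries together would have held 1001 counts. The level was 83.5 and 34.9 TPM in PC and 0 and 0.154 TPM in HC. In PC it ranked at the 93.9 and 86.5 percentiles of protein-coding genes by TPM. It was 491-fold lower in HC over both libraries of a group, with a 95% exact counting interval from 136 to 4057, which rests on 2 counts.

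Ninj2 (chromosome 6, 120093350 to 120200339, plus strand) encodes ninjurin 2, an adhesion protein induced in Schwann cells after nerve injury. It had 230 and 112 counts in PC and 0 in both HC libraries. That made it at least 54.0-fold lower, taking 3 counts over the group as the floor, where 166 counts would have been found at the PC level. Most of its level in PC came from transcript Ninj2-202, with 89.4% and 80.6% of the gene's TPM, and the rest from Ninj2-201.

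Fabp7 (chromosome 10, 57784881 to 57788450, plus strand) encodes the brain fatty acid-binding protein of radial glia and Schwann cell precursors. It had 101 and 237 counts in PC and 0 in both HC libraries, at least 53.3-fold lower. The HC libraries would have held 157 counts at the PC level. For both Ninj2 and Fabp7, a count of 0 allows a level of up to 0.244 CPM in HC replicate 3 and 0.135 CPM in HC replicate 4. In TPM, Fabp7 was the one gene of this set with more in PC replicate 2 than in PC replicate 1, at 12.3 against 6.91. In CPM, Erbb3 was also slightly higher in PC replicate 2, at 5.84 against 5.17.

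Scrg1 (chromosome 8, 57455923 to 57477585, plus strand) encodes a small secreted cysteine-rich protein, named for its response to scrapie in brain and also induced as cells become chondrocytes. With 588 and 208 TPM in PC it had the highest level of the 8 genes there, at the 99.1 and 97.9 percentiles of protein-coding genes. In HC it had 7.86 and 8.32 TPM, from 70 and 83 counts. The HC libraries lay close together and both far below PC, with a log2 fold change of -4.98 ± 0.58 (SE, n = 2 per group). Unlike Cmtm5, it remained well detected in HC, at the 74.2 and 67.4 percentiles.

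Trabd2b (chromosome 4, 114406724 to 114615098, plus strand) encodes a membrane metalloprotease, also called TIKI2, that cleaves and inactivates Wnt proteins. Its level was 16.6 and 8.14 TPM in PC and 0.12 and 0.301 TPM in HC. In counts these were 2472 and 1548 against 12 and 35, a log2 fold change of -5.42 ± 0.52 (SE, n = 2 per group). It is the longest of the members, with a transcript of 6617 bases, and the only one whose estimated count was not whole in any library (within 0.01), as kallisto gives when reads fit more than 1 transcript.

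S100b and S100a1 encode small calcium-binding proteins that form dimers. S100b (chromosome 10, 76253853 to 76261159, plus strand), a standard marker of astrocytes, Schwann cells and cartilage, had 177 and 147 TPM in PC and 41.5 and 82.2 TPM in HC. It stayed at or above the 92.9 percentile in all 4 libraries, so it remained an abundant transcript in HC. The difference was -0.93 ± 0.29 in log2 fold change (SE, n = 2 per group). The span of Dip2a, on the opposite strand, overlaps that of S100b, and Dip2a had 1434 and 1066 counts in PC against 33 and 523 in HC. Estimated counts of S100b were whole within 0.01 in 3 of the 4 libraries, and the part of Dip2a in them was not tested. Whether the counting used strand is not stated in the labels.

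S100a1 (chromosome 3, 90511034 to 90514392, minus strand) had 107 and 71.2 TPM in PC and 92.3 and 143 TPM in HC, so the groups overlapped on that scale. In CPM it was at 35.5 and 28.5 in PC and 63.9 and 61.1 in HC, without overlap, and the log2 fold change of S100a1 was 0.97 ± 0.29 (SE, n = 2 per group). The ratio of S100b to S100a1, which does not depend on library scaling, was 1.66 and 2.06 in PC and 0.45 and 0.576 in HC, taken from TPM. S100b was thus the more abundant of the pair in each PC library, and S100a1 in each HC library. The sign of both differences held under all 10 other settings, with -1.46 to -0.8 for S100b and 0.39 to 1.1 for S100a1.

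Among other S100 genes, the S100P-binding protein gene S100pbp and the receptor gene Ager, 10 of 17 had enough counts to be tested and none passed the edgeR test in either direction. At an unadjusted p under 0.05, 5 were higher and 1 lower in HC, and DESeq2 called 4 higher. The median log2 fold change of the 10 was 1.39, beside -0.04 for all genes tested. S100a11, the most abundant, had 984 and 1500 TPM in PC and 2260 and 2360 in HC (edgeR adjusted p = 0.102). S100a10, the partner of annexin A2, had 83.1 and 67 TPM in PC and 115 and 122 in HC (edgeR adjusted p = 0.0837). S100a13 varied within HC, with 6.46 and 92.6 TPM, its groups overlapped, and its log2 fold change went from 1.57 to -0.79 without HC replicate 4. S100a2, S100a5 and S100z had no count in any library.

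**Figure D2:**
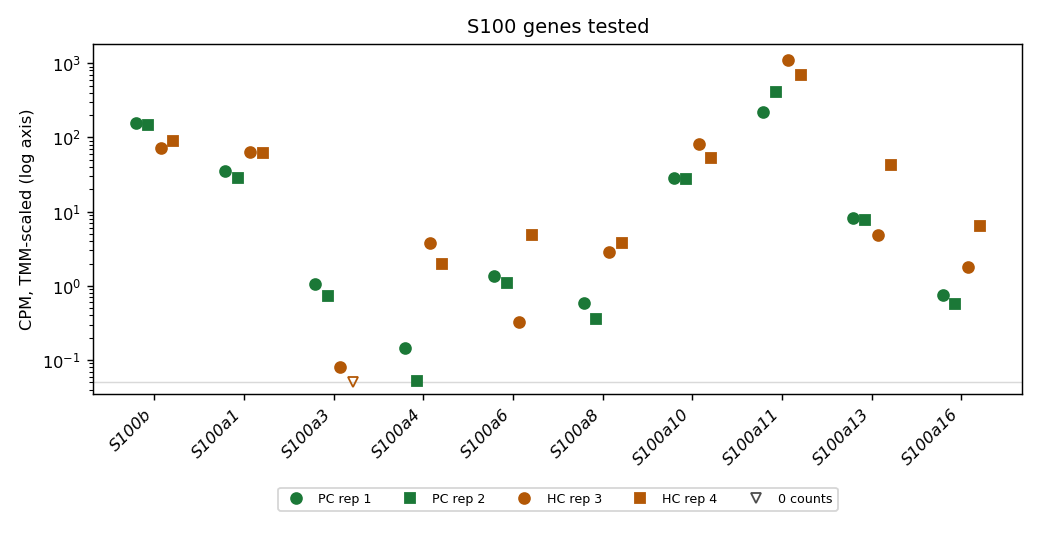
Points give CPM after TMM scaling on a log axis for S100b, S100a1 and the 8 other S100 genes with enough counts (green, PC; brown, HC; open triangles, 0 counts). S100b stands higher in PC, from 70.9 CPM in HC replicate 3 to 155 in PC replicate 1, while S100a1, S100a10 and S100a11 stand higher in HC.

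Erbb3 (chromosome 10, 128567523 to 128589652, minus strand) encodes a receptor for neuregulins that has little kinase activity of its own and signals with ERBB2, a pathway that Schwann cells need. Its level was low, at 1.32 and 1.3 TPM in PC and 1.01 and 0.947 TPM in HC, without overlap on that scale. The counts behind these levels were 178 and 225 in PC and 92 and 100 in HC. In CPM the groups overlapped, with 5.17 and 5.84 in PC against 7.47 and 4.5 in HC, and Erbb3 had a log2 fold change of 0.12 ± 0.56 (SE, n = 2 per group). The sign was not stable, and Erbb3 stood at -0.18 when only library size was used for scaling.

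Its partner Erbb2 was lower in HC. Erbb2 stood at 54.4 and 31 CPM in PC against 10.7 and 9.41 in HC (log2 fold change -2.09 ± 0.40, edgeR adjusted p = 0.0485). This call was lost without PC replicate 1 (edgeR adjusted p = 0.277, log2 fold change -1.66). In TPM the groups of Erbb2 lay closer, with 17.5 and 8.52 in PC against 8.08 and 2.71 in HC. The ratio of Erbb2 to Erbb3, taken from TPM, overlapped between the groups, at 13.3 and 6.54 in PC and 8.01 and 2.86 in HC. Lrig3, a membrane protein related to the ErbB inhibitor Lrig1, fell from 105 and 90.1 CPM to 13.7 and 10.3 (-3.02 ± 0.33, edgeR adjusted p = 0.0359). Erbb2 and Lrig3 were the 2 genes that passed among 18 tested of 21 ErbB receptors, ligands and modulators, while 0 rose with edgeR and 4 were higher at an unadjusted p under 0.05, with 4 called higher by DESeq2. The median of the list was 0.58. Of all genes tested, 4.71% passed in either direction.

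The other receptors were higher in HC but missed the threshold. Erbb4, a neuregulin receptor with kinase activity, stood at 0.726 and 0.779 CPM in PC against 6.58 and 9.09 in HC (3.37 ± 0.67, edgeR adjusted p = 0.0509). Egfr stood at 19.7 and 28.9 CPM in PC against 71 and 56 in HC (1.39 ± 0.34, edgeR adjusted p = 0.0763). Erbb4 and Egfr passed it with no filter or with DESeq2. The neuregulins were near the limit of detection. Nrg1 had 52 and 25 counts in PC and 23 and 0 in HC, and Nrg2, Nrg3 and Nrg4 had between 10 and 45 counts in each library. None of the 4 passed (edgeR adjusted p from 0.435 to 0.952).

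**Figure D3:**
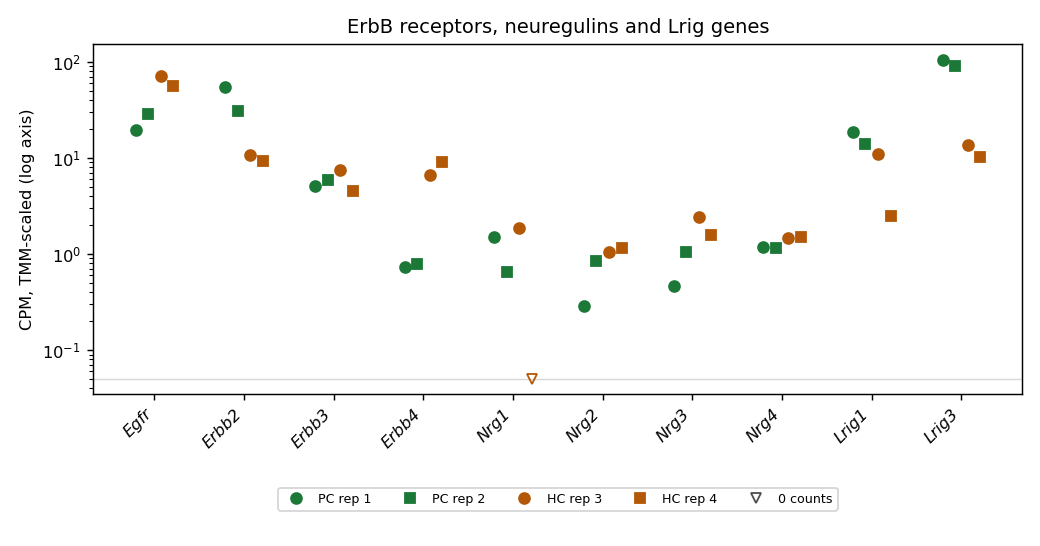
Points give CPM after TMM scaling on a log axis for the 4 ErbB receptors, the neuregulins and 2 Lrig genes (green, PC; brown, HC; open triangles, 0 counts). Erbb2 and Lrig3 stand lower in both HC libraries, Erbb3 overlaps between 4.5 and 7.47 CPM, and the neuregulins are at or below 2.44 CPM.

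Relatives of the other members were counted by the same test. Of 23 relatives listed, 13 were tested, 1 fell and 1 rose. Cmtm4, of the family of Cmtm5, fell from 27.5 and 19.1 CPM in PC to 3.73 and 4.37 in HC (-2.52 ± 0.42, edgeR adjusted p = 0.0399), and the call was lost without PC replicate 1 (edgeR adjusted p = 0.195, log2 fold change -2.27). Fabp3, the fatty acid-binding protein of heart and muscle, rose from 1.69 and 6.41 CPM in PC to 54.7 and 69.6 in HC (3.94 ± 0.69, edgeR adjusted p = 0.0425), with 5.17 without PC replicate 2. It thus moved opposite to Fabp7, while the muscle genes above were also higher in both HC libraries, and their part in this value was not tested. Fabp5, whose sign turned with limma, stood at 8.05 and 6.91 CPM in PC against 9.58 and 11.3 in HC, and Ninj1, the relative of Ninj2, had 17.7 and 5.24 in PC and 1.14 and 4.68 in HC. Neither passed (edgeR adjusted p = 0.533 and 0.234).

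Proliferating libraries differed from each other in these genes. Cmtm5, Scrg1, Ninj2 and Trabd2b were 2.04, 2.39, 2.3 and 1.79 times higher in PC replicate 1 than in PC replicate 2, in CPM. Fabp7 was 2.1 times higher in PC replicate 2. These 5 of the 8 members differed by at least 1.5-fold between the PC libraries, beside 29.1% of all genes tested. S100b, S100a1 and Erbb3 differed less, with ratios of replicate 1 to replicate 2 of 1.04, 1.25 and 0.886. The genes of hypertrophy summed to 825 CPM in PC replicate 1 and 2250 in PC replicate 2, and 25 chondrocyte core genes to 80200 and 64900. The part of this difference in the values of the members was not tested.

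**Figure D4:**
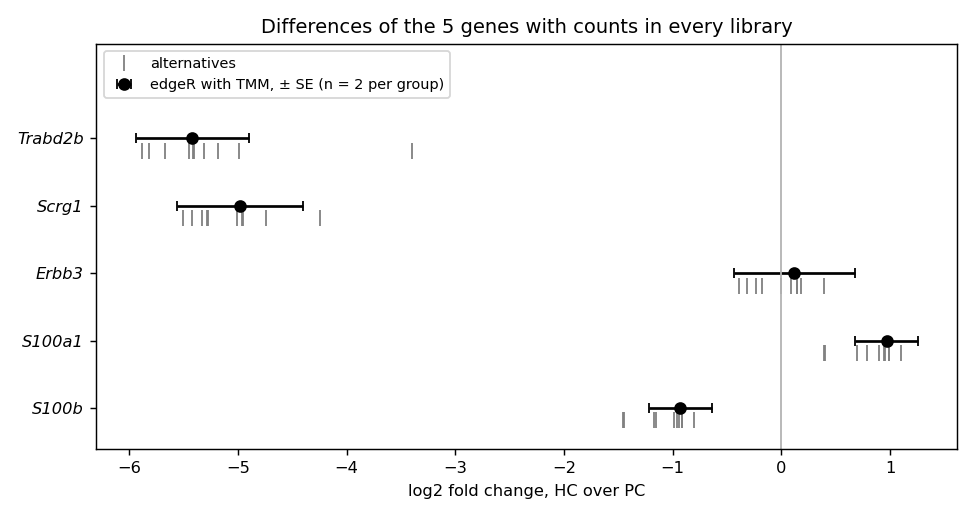
Points give the log2 fold change of HC over PC with its SE (n = 2 per group) from edgeR with TMM scaling for the 5 members with counts in every library, and grey ticks below them the values under 10 other settings. Trabd2b lies at or below -3.4 and Scrg1 at or below -4.24 in every setting, S100b lies below 0 and S100a1 above 0, and Erbb3 falls on both sides of 0.

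Transcripts of 5 members are under 900 bases, namely Cmtm5, Scrg1, Ninj2, Fabp7 and S100a1, whose main transcripts run from 677 bases (S100a1) to 869 (Cmtm5). S100b has 1484 bases and Erbb3 6016. Fragments were shorter in HC, as the effective length of long transcripts was nearer to the annotated one there (median difference of -124.7 and -145.5 bases, against -172.8 and -153.3 in PC). Among 1317 protein-coding genes tested with a main transcript under 900 bases, the median log2 fold change was -0.05 and 2.2% were called lower in HC. Among 14082 longer ones the values were -0.06 and 2.07%. The share called higher in HC was 1.9% for the short and 3.03% for the longer ones. For 6 of the 8 members the estimated counts were whole within 0.01 in all 4 libraries, and S100b and Trabd2b were the exceptions.

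Markers of glia, cells that the cut tissue could hold, were read beside the members. Of 25 Schwann cell genes, 22 were tested, 3 rose, 1 fell and 18 did not pass, with a median log2 fold change of 0.02, beside 4.71% of all genes passing. Mbp, a myelin protein that is also made outside glia, rose (3.1 ± 0.37, edgeR adjusted p = 0.0359), as did the growth factor receptor Ngfr (2.6 ± 0.42, edgeR adjusted p = 0.0392) and the zinc finger factor Egr2 (4.72 ± 0.62, edgeR adjusted p = 0.0359). Ngfr no longer passed when PC replicate 1 or 2 was left out (edgeR adjusted p = 0.108 and 0.0631), with log2 fold changes of 2.49 and 2.64.

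Defining Schwann cell genes did not follow one direction. Sox10 had 451 and 500 counts in PC against 32 and 12 in HC. Its difference, -3.09 ± 0.82, missed the threshold (edgeR adjusted p = 0.0864), but passed it with no filter or with DESeq2. It was -4.62 without HC replicate 3 and -2.37 without HC replicate 4. Cdh19, an adhesion protein of Schwann cell precursors, was higher in HC, with 3.49 and 4.67 CPM in PC against 14.9 and 32.5 in HC (2.54 ± 0.53, edgeR adjusted p = 0.0549). Cdh19 passed when PC replicate 2 (2.73), HC replicate 3 (2.96) or HC replicate 4 (1.82) was left out, and with no filter or DESeq2. Foxd3, an early factor of the neural crest, had no count in any library. The whole Schwann list summed to 289 and 270 TPM in PC and 221 and 395 in HC, so the groups overlapped. Pmp22 made up 119 and 105 TPM of these sums in PC and 86.6 and 198 in HC (edgeR adjusted p = 0.175). Ncam1 made up 106 and 112 TPM in PC and 54.4 and 81.1 in HC (edgeR adjusted p = 0.378). Sox10 was thus low with the members in HC, while the sum, which rests mostly on Pmp22 and Ncam1, overlapped. The part of glial cells in the values of the members was not tested.

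**Figure D5:**
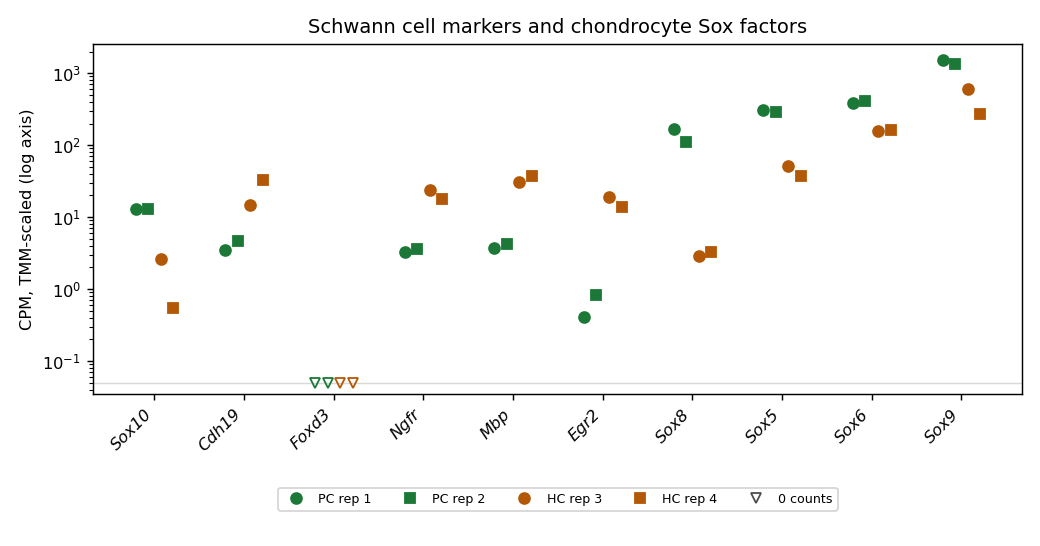
Points give CPM after TMM scaling on a log axis for 6 Schwann cell genes and, to the right, the Sox factors Sox8, Sox5, Sox6 and Sox9 (green, PC; brown, HC; open triangles, 0 counts). Sox10 stands lower in HC, Cdh19, Ngfr, Mbp and Egr2 stand higher, Foxd3 has no counts, and all 4 Sox factors on the right stand higher in both PC libraries.

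Other glial lists were read in the same way, beside the same 4.71% of all genes passing. Of 24 oligodendrocyte genes, 17 were tested and 11.8% of them passed: 2 rose, Mbp and the phosphodiesterase Enpp6 (4.23 ± 0.78, edgeR adjusted p = 0.046), and 0 fell with edgeR, while 3 were lower at an unadjusted p under 0.05 and DESeq2 called 2 lower. Without PC replicate 2, Enpp6 was at 5.47. The list's median was -0.12, and it summed to 292 and 166 TPM in PC and 72.7 and 228 in HC. Cspg4 alone made up 212 and 105 TPM of these sums in PC and 24.8 and 91.8 in HC (edgeR adjusted p = 0.263). Olig1 and Olig2, the factors that define this lineage, had at most 9 counts in any library, and Opalin had none. Of 25 astrocyte and radial glia genes, 19 were tested and 21.1% of them passed, with 3 that rose, 1 that fell and a median of 0.85. Gja1, a gap junction protein, the intermediate filament gene Nes and the receptor phosphatase Ptprz1 rose by 2.36 ± 0.37, 3.6 ± 0.36 and 4.97 ± 0.92 on the log2 scale (edgeR adjusted p = 0.037, 0.0359 and 0.0468), and all 3 are also expressed outside glia. Ptprz1 was at 6.35 without PC replicate 2 and at 3.92 without HC replicate 3. Atp1b2, a subunit of the sodium pump, fell from 72.7 and 77.2 CPM in PC to 19 and 10.1 in HC (-2.37 ± 0.40, edgeR adjusted p = 0.0401). Gfap, the filament protein of astrocytes, had 7 counts or fewer in each library, and this list summed to 660 and 784 TPM in PC and 2550 and 1110 in HC. Gli3, a transcription factor of Hedgehog signalling that is also active in limb and cartilage, made up 98.4 and 251 TPM of these sums in PC and 1880 and 187 in HC (edgeR adjusted p = 0.152).

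Sox factors of the cartilage state were set beside the members. Sox8 stood at 170 and 112 CPM in PC against 2.84 and 3.29 in HC (-5.52 ± 0.40, edgeR adjusted p = 0.0359). Sox5 fell by 2.75 ± 0.33 (edgeR adjusted p = 0.0359). The values for Sox9 and Sox6, -1.69 ± 0.47 and -1.3 ± 0.29, missed the threshold (edgeR adjusted p = 0.0947 and 0.0614). Either HC library left out brought both genes past it, with Sox9 at -2.43 when that library was HC replicate 3, and for Sox9 so did leaving out PC replicate 2. Col2a1 and Acan, which encode the chief collagen and proteoglycan of cartilage, had values of -0.36 ± 0.47 and -0.54 ± 0.49 (edgeR adjusted p = 0.671 and 0.538). Of 25 chondrocyte core genes, 5 fell (Sox8, Sox5, Matn4, Wwp2 and Prelp), 0 rose with edgeR, 1 at an unadjusted p under 0.05, and 1 was called higher by DESeq2, with a median of -1.48. Without single libraries 8 to 18 of them were lower.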

How the data were processed

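Per the submitters' processing notes, reads were trimmed with Trimmomatic 0.36 and assigned to transcripts with kallisto 0.43.1, build mm10. Each transcript has 4 values per the file headers, namely its length, effective length, estimated count and TPM. An estimated count, as deposited, may be a fraction of a read, and TPM, as the authors deposited it, is scaled to length and a fixed total and keeps no depth. No label states a strand setting.

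Of 109282 transcripts, 107987 matched GENCODE M21 (GRCm38) by identifier without version, and unmatched ones held 0.36% to 0.53% of counts. Estimated counts and TPM were summed per gene. Counts were rounded, filtered with filterByExpr, scaled by TMM (factors 1.14 and 1.058 in PC against 0.812 and 1.021 in HC) and tested for HC against PC with edgeR 4.0.16 (R 4.3.3), a quasi-likelihood F-test with Benjamini-Hochberg adjustment over 16607 genes, called at 0.05. Risen or fallen is written only of genes past that test. The SE comes from the coefficient and its F statistic. Folds of genes at 0 in HC are bounds against 3 counts over the group, and with 2 counts an exact Clopper-Pearson interval is given. Bounds and interval reflect counting error alone, with the libraries of a group pooled, and leave out the spread between libraries. PCR copies are not separate molecules, and no allowance was made for them.

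The members and lists were chosen with earlier results of these data known. Named are all members, up to 4 passing genes of each list with the lowest p, defining Schwann cell genes, ErbB receptors and neuregulins, 6 Sox and matrix genes, and the 6 genes of most like profile. Others given were chosen after their values were seen: S100a10, S100a11, S100a13, Fabp5, Ninj1, Map2, Prelp, Gli3, Cspg4, Dip2a and the markers at or near 0. Several genes are in more than 1 list, such as Mbp and Sox10. Alternatives were scaling with DESeq2 size factors or to library size alone, no filter, the DESeq2 1.42.0 Wald test, limma 3.58.1 on log2(TPM + 1) or log2(TPM + 0.1), and leaving out each library. Some genes that this rule names are not reported here. The fits were tested on simulated data with known fold changes. Promoters are from RefSeq.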

Additional observations from a re-analysis of the deposited data

How the results depend on the processing

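With 2 libraries per group, calls depended strongly on the fit. With scaling to library size alone and with limma on log2(TPM + 1) or log2(TPM + 0.1), every count was 0 in both directions, from 457 genes higher and 325 lower in HC. Without a filter 963 were higher and 965 lower, and with DESeq2 1629 and 1445. Without single libraries 379 to 3331 were higher and 257 to 3775 lower, where the remaining library of a group is assumed to vary like the other group. The cause was not tested. DESeq2 size factors moved none of these counts by more than 1.5 times.

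By list, with no filter and then DESeq2, Schwann cell genes were 5 and 6 higher and 3 and 3 lower, S100 genes 1 and 4 higher, ErbB genes 2 and 4 higher, chondrocyte core genes 13 and 17 lower, neuron genes 2 and 2 lower, and oligodendrocyte genes 2 and 2 lower. DESeq2 also called 2 relatives of the other members and 1 chondrocyte core gene higher. Astrocyte and radial glia genes were 0 in both directions with limma and with library size alone, as were the calls of all other lists. Without single libraries, the counts ranged from 2 to 7 higher and 0 to 7 lower for Schwann cell genes, 2 to 5 and 0 to 6 for oligodendrocyte genes, 4 to 8 and 1 to 3 for astrocyte and radial glia genes, 0 to 4 and 1 to 5 for neuron genes, 0 to 6 and 0 to 1 for S100 genes, 0 to 5 and 1 to 4 for ErbB genes, 1 to 6 and 0 to 2 for relatives, and 0 to 1 and 8 to 18 for chondrocyte core genes.

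As a count on the contrast that chose them, from which nothing is read, members lower by edgeR numbered 5, and 4 without PC replicate 1 (Ninj2 at -9.17 no longer counted) or PC replicate 2 (Fabp7 at -9.09), both with 0 counts in HC, so that these fitted values are no bounds. Erbb3 reversed to -0.18 with library size alone, -0.23 and -0.39 with limma, -0.0033 without PC replicate 1 and -0.32 without HC replicate 3, and was at most 0.39, without HC replicate 4. Nrg1 reversed to 0.48 without PC replicate 1 and 0.75 without HC replicate 4 (without HC replicate 3 it was -8.11, a value set by the prior count, as the remaining HC library is at 0), Nrg2 to -0.00071 with limma on log2(TPM + 0.1), and Nrg4 to -0.18 and -0.30 with limma on log2(TPM + 1) and log2(TPM + 0.1). S100a13 reversed to -0.79 without HC replicate 4 and was at most 2.38, without HC replicate 3. Fabp5 reversed to -0.10 and -0.11 with limma on log2(TPM + 1) and log2(TPM + 0.1). No paired analysis was possible because PC carries replicate numbers 1 and 2 and HC 3 and 4. HC replicate 3, at 15246529 estimated counts, sets the highest floor, 0.244 CPM.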

Other observations

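Markers of neurons were counted as well. Of 22 neuron genes, 16 were tested, 1 fell and 0 rose with edgeR, while 0 were higher at an unadjusted p under 0.05 and DESeq2 called 0 higher. The 1 gene was the sodium channel Scn9a, which fell from 26.6 and 25 CPM in PC to 3.41 and 1.13 in HC (-3.54 ± 0.62, edgeR adjusted p = 0.0425), with -4.55 without HC replicate 3. Tubb3, the tubulin of neurons, had 1 count in each PC library and 0 and 16 in HC. The median log2 fold change of the neuron genes tested was 0.74, beside -0.04 for all genes, although 4 were lower at an unadjusted p under 0.05. The list summed to 106 and 124 TPM in PC and 57.4 and 58.2 in HC. Map2 alone made up 76.6 and 98.9 TPM in PC and 28.2 and 41.1 in HC (edgeR adjusted p = 0.0595). A list of 9 genes of melanocytes, another neural crest derivative, summed to between 8.65 and 15.1 TPM in all libraries. Of its 6 tested genes, 1 rose, the transcription factor Mitf, which is also expressed outside melanocytes (3.14 ± 0.43, edgeR adjusted p = 0.0359), while the pigment enzyme genes Dct and Tyrp1 had at most 13 counts in any library.

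A set of 6 genes had the profile most like the median of the 8 members, by Euclidean distance of mean-centred log2(CPM + 0.5) over the 4 libraries among 10058 protein-coding genes with at least 5 CPM on average in PC. In order they were Meltf, Lrrc56, Troap, Krt87, Chtf18 and Hist1h4b, at distances of 0.26 to 0.34. Meltf, which encodes the iron-binding membrane protein melanotransferrin, stood at 206 and 158 CPM in PC against 20.9 and 23.4 in HC. Troap acts at the mitotic spindle and Chtf18 loads clamps onto replicating DNA, while Hist1h4b is a histone gene with near-identical copies, so its counts are uncertain. The members themselves lay at distances of 0.6 (Ninj2) to 4.16 (S100a1) from their median. With 4 libraries such likeness is a description and follows mainly from the difference between the groups.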
